A study of Danio rerio with 18 samples.

Results

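Mitochondria carry their own ribosomes, and nearly all of the proteins of those ribosomes are made in the cytosol and imported. The genes described here encode the ribosomal proteins of the large subunit (symbols starting mrpl) and of the small subunit (mrps), and proteins that bring precursors across the inner membrane (timm) and the outer membrane (tomm). The class was picked with earlier results of these data known, and its members were taken by symbol, as every gene of the zebrafish array whose symbol starts with one of these 4 stems followed by a digit. The rule found 77 genes of the 8793 that the array names singly: 38 mrpl, 21 mrps, 10 timm and 8 tomm genes. They lie on 88 of the 15502 probe sets tested. Each gene was read from its brightest probe set, by the mean of the 18 arrays; 67 genes had 1 probe set and 10 had more.

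The mitochondrial ribosome translates the few messages encoded by mitochondrial DNA, which specify core subunits of the respiratory chain. Precursors made in the cytosol are recognised by receptors of the TOM complex in the outer membrane, pass its pore, and are handed to the TIM23 complex, the TIM22 complex or the small TIM chaperones of the space between the membranes. Photoreceptors and other retinal neurons use much ATP, and the retinal pigment epithelium (RPE), the pigmented layer behind the retina, is also rich in mitochondria. The roles given below are known mainly from yeast and human proteins.

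The RNA came from zebrafish of strain AB at 52 hours post fertilization, in 6 groups of 3 arrays. The groups were the young mutant, labelled as smarca4, as retina with RPE attached, as bare retina and as whole embryo, and wild type in the same 3 forms. Smarca4 is an ATPase of the SWI/SNF chromatin remodelling complex; the labels give neither the allele nor the zygosity, and say that mutants were staged by their wild-type siblings. Each array held one pool: 6 tissues in each mutant RPE-attached pool, 9 in mutant retina replicate 2 and 10 embryos or tissues in every other pool. The series design names genes regulated by Smarca4 in retina and RPE as its aim. RPE was never measured alone: the RPE-attached pools hold retina and RPE together, so the RPE is seen only as a difference from bare retina.

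Values are log2 signals, and differences are log2 differences ± SE from limma with n = 3 arrays per group, where the SE pools the spread of all 6 groups. A gene was called when its Benjamini-Hochberg adjusted p over all 15502 probe sets was under 0.05. p-values measure the spread between pools. In pooled tissue, fewer cells of a type and less RNA per cell cannot be told apart. A signal under 5.15, the 30th percentile of all group means, was taken as dim, and no fold is given where the lower group was under it.

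The labels were checked first. The brighter smarca4a probe set averaged 9.20 ± 0.28, 8.89 ± 0.20 and 7.87 ± 0.14 in mutant RPE-attached retina, mutant retina and mutant embryos (SD, n = 3). It averaged 10.84 ± 0.28, 11.15 ± 0.16 and 10.30 ± 0.14 in the same wild type tissues. Markers of the RPE separated RPE-attached from bare retina: 5 of 5 RPE genes were higher with RPE attached in mutants and 3 of 5 in wild type, and 5 of 6 melanin genes in each genotype. Genes of neighbouring tissue came along, with 10 of 13 mesenchyme and cartilage genes higher with RPE attached in mutants and 8 of 13 in wild type. The background was 23.9% of all probe sets higher in mutants and 15.2% in wild type. Gene-centred medians of neural crest and xanthophore genes were 0.138 to 0.235 with RPE attached in mutants, against -1.047 to -0.743 in bare retina. In wild type they were 0.215 to 0.294, against -0.832 to -0.658. Vessel genes had 0.343 to 0.498 against -0.286 to -0.190 in mutants, and -0.054 to 0.130 against -0.421 to -0.233 in wild type. Of 4 lens genes, 3 were lower in mutant RPE-attached than in mutant retina. Their median level, centred on each gene's mean over all arrays, was between -2.12 and -1.62 in mutant RPE-attached retina, against 0.75, 0.83 and -1.37 in mutant retina. The part of these other tissues in the members' values was not tested. The mutant RPE-attached arrays also stood apart technically. Their hybridization controls, which are added to the hybridization mix, averaged 11.33 ± 0.12. Wild type RPE-attached retina had 9.66 ± 0.09, and the remaining groups had means of 9.77 to 9.97. Those remaining groups were not uniform: replicate 1 had 10.355 to 10.598, replicate 2 had 9.523 to 9.778 and replicate 3 had 9.365 to 9.548. Neither RPE-attached group followed that order. The median SD per probe set of the mutant RPE-attached arrays was 0.175, against 0.111 to 0.123 elsewhere. The wild type RPE-attached arrays stood apart on the poly-A controls, which are added to the RNA before labelling: these averaged 5.58 ± 0.045 there, against 4.63 to 4.98 in the other groups. The wild type RPE-attached tissue and whatever set these controls apart cannot be told apart either. The mutant RPE-attached tissue, its smaller pools and whatever set its control spots apart cannot be told apart, and this bears on every comparison below that uses those 3 arrays.

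As a class, the genes were well above the dim mark: 76 of 77 passed 5.15 in at least 1 group, and 73 did so in every group. The exception was timm8a, a small TIM chaperone, which was below it in all groups. The brightest were tomm22, tomm40 and timm13, and the dimmest after timm8a were mrps33, mrpl22 and mrpl1, although brightness also depends on the probes and ranks no transcript amounts. By group mean, 34 members were highest in wild type RPE-attached retina, 19 in wild type retina, 13 in mutant retina, 10 in mutant RPE-attached retina and 1 in wild type embryos. The lowest mean lay in mutant embryos for 44, in mutant RPE-attached retina for 21, in wild type embryos for 7, in wild type RPE-attached retina for 4 and in mutant retina for 1. The same was not counted over all probe sets, so this order is not shown to be particular to the members. Of all probe sets, 44.5% were called higher in wild type retina than in wild type embryos, and 47.8% in the mutant. The plot of class medians by array shows how the 4 classes lay on each array.

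**Figure D1:**
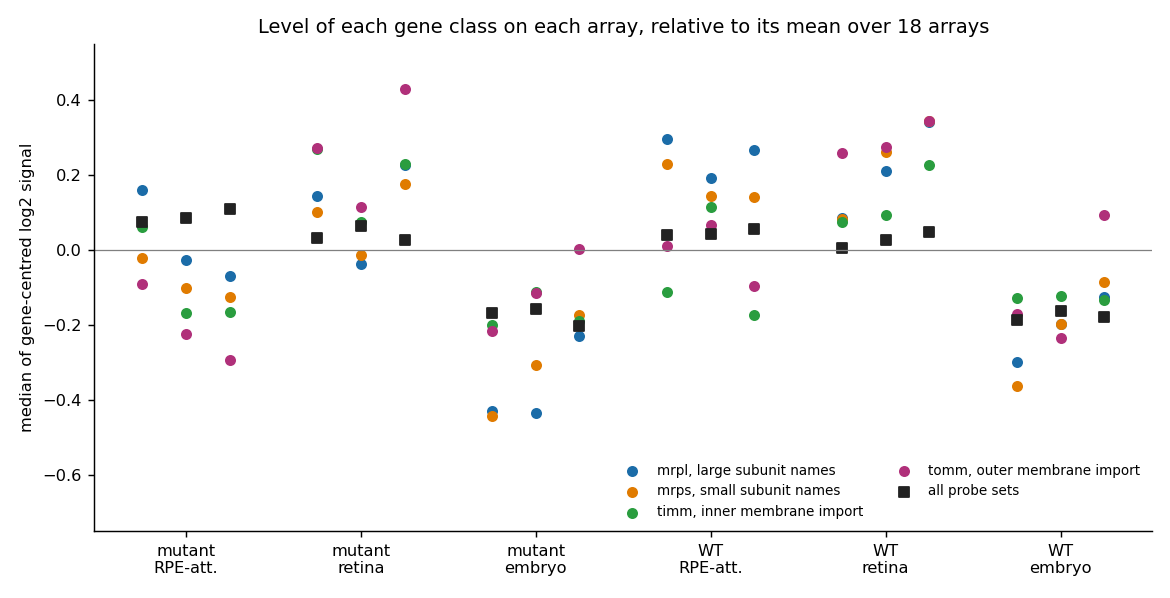
Median, on each of 18 arrays, of log2 signals centred on each gene's mean over all arrays, for the mrpl, mrps, timm and tomm genes (circles) and for all probe sets (squares); each group has 3 arrays side by side. The tomm medians lie between -0.29 and -0.09 in mutant RPE-attached retina and between 0.11 and 0.43 in mutant retina, with no overlap. In wild type they lie between -0.10 and 0.07 with RPE attached and between 0.26 and 0.34 in bare retina, also with no overlap.

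The main comparison asked how the members differ between retina with RPE and bare retina of the mutant. Most of those that changed were lower with RPE attached. Of 77 members, 4 were higher and 31 lower, against 23.9% of all probe sets higher and 16.3% lower. These shares are 5.19% and 40.3% of the members, whose median difference was -0.18, against 0.10 over all probe sets. Bright probe sets as a whole leaned the same way: among the 4745 with a mean of at least 7.64, the mark above which 3 in 4 members lie, 21.2% were higher and 30.5% lower. Other bright gene families did too. Of 91 respiratory chain genes, 9 were higher and 38 lower, with a median of -0.21, and of 73 cytosolic ribosomal protein genes 2 were higher and 29 lower, with a median of -0.25. The lean is therefore not shown to be particular to these genes. The count of higher members was 2 without mutant RPE-attached replicate 3 and 2 without mutant retina replicate 2, against 20.8% and 21.7% of all probe sets. Cyclic loess normalization gave 10 higher and 24 lower, against 20.9% and 15.6% of all probe sets. The members' median was -0.10 without mutant retina replicate 3 and -0.085 under cyclic loess.

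Genes with tomm symbols were lower almost throughout, with 7 of 8 called lower in mutant RPE-attached than in mutant retina and none higher. Of all probe sets 16.3% were lower, and of the bright ones 30.5%. tomm20b, a receptor for precursors with an N-terminal targeting sequence, had 9.34, 9.02 and 8.87 in mutant RPE-attached retina, against 10.18, 10.03 and 10.25 in mutant retina. All 3 RPE-attached arrays lay below all 3 bare retina arrays, a 2.11-fold difference (-1.08 ± 0.12, adjusted p = 1.5e-06). Such a separation downward held for 17.9% of all probe sets in the mutant. A dimmer probe set of tomm20b was also lower (-0.58, adjusted p = 0.00283). tomm5, a small subunit of the TOM complex, had 8.74, 8.91 and 8.61 in mutant RPE-attached retina, against 9.79, 9.72 and 9.94 in mutant retina. The groups were again separate, by 2.09-fold (-1.06 ± 0.12, adjusted p = 9.2e-07). tomm34, a cytosolic co-chaperone of precursors, was 1.89-fold lower (-0.92 ± 0.20, adjusted p = 0.00117). Its lowest value, 6.47 in replicate 3, stood below the 7.19 and 7.22 of the other mutant RPE-attached arrays. tomm7, another small TOM subunit, was lower by less (-0.56 ± 0.13, adjusted p = 0.00245). The receptor tomm20a (-0.44), the central receptor tomm22 (-0.39) and tomm40l, a relative of the pore protein (-0.31), were also called lower. tomm40, which encodes the pore itself, had 10.50, 10.51 and 10.31 in mutant RPE-attached retina, against 10.48, 10.21 and 10.03 in mutant retina. The groups overlapped and it was not called (0.20 ± 0.16, adjusted p = 0.343).

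Among inner membrane import genes, 3 of 10 timm members were lower and none was higher. This was near the 30.5% of bright probe sets that were lower, while 16.3% of all probe sets were. The 3 all belong to the TIM23 route, but a difference by route was not tested. timm21, a TIM23 subunit, had 4.96, 5.34 and 4.79 in mutant RPE-attached retina, against 6.63, 6.62 and 6.69 in mutant retina. This was the largest difference of any member (-1.61 ± 0.15, adjusted p = 1.9e-07), although the RPE-attached arrays lay around the dim mark. timm44, which tethers the mitochondrial Hsp70 motor to the channel, had 7.19, 7.33 and 7.24, against 8.04, 8.09 and 8.13 in mutant retina. It was 1.78-fold lower (-0.83 ± 0.13, adjusted p = 3.9e-05). timm17a, a channel subunit, was 1.51-fold lower (-0.59 ± 0.13, adjusted p = 0.00149). timm50, the receptor of the same complex, was not called (0.18 ± 0.14, adjusted p = 0.323).

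Of the ribosomal proteins, 12 of 38 mrpl and 9 of 21 mrps members were lower, and 2 of each were higher. The background was 16.3% of all probe sets lower and 23.9% higher, and 30.5% and 21.2% of the bright ones. mrpl43 had 4.84, 4.82 and 5.15 in mutant RPE-attached retina, against 6.70, 6.38 and 6.48 in mutant retina. The RPE-attached mean was dim, and the log2 difference was -1.58 ± 0.12 (adjusted p = 1.2e-08). mrpl54 had 7.51, 6.89 and 7.24, against 8.49, 7.93 and 8.44 in mutant retina, a 2.11-fold lower level (-1.08 ± 0.18, adjusted p = 0.00013). mrpl52 (-0.89) and mrpl1 (-0.84) came next among the large subunit names. In the small subunit, mrps6 was 1.86-fold lower (-0.90 ± 0.13, adjusted p = 2.4e-05) and mrps26 was 1.81-fold lower (-0.86 ± 0.18, adjusted p = 0.00076). mrps7 was lower on its brighter probe set (-0.67) while a dimmer one stood at 0.40 and was not called, and mrpl19 split in the same way, at -0.68 and 0.24. Beyond 2-fold, 5 members were lower and none was higher, counted without regard to the dim mark. No share of all probe sets is given for this rule, so the count is not shown to be particular to the members. The 5 include timm21 and mrpl43, for which no fold is given.

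The 4 members called higher with RPE in the mutant were ribosomal. mrps31 had 9.04, 9.36 and 8.93 in mutant RPE-attached retina, against 8.42, 7.89 and 8.44 in mutant retina. The groups did not overlap, and it was 1.81-fold higher (0.86 ± 0.15, adjusted p = 2.0e-04). Such a separation upward held for 27.7% of all probe sets in the mutant. A dimmer probe set of mrps31, with a mean below the dim mark, was not called (-0.11). The others were mrps10 (0.45), mrpl45, which lies at the ribosome's membrane-facing side (0.34), and mrpl39 (0.26).

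**Figure D2:**
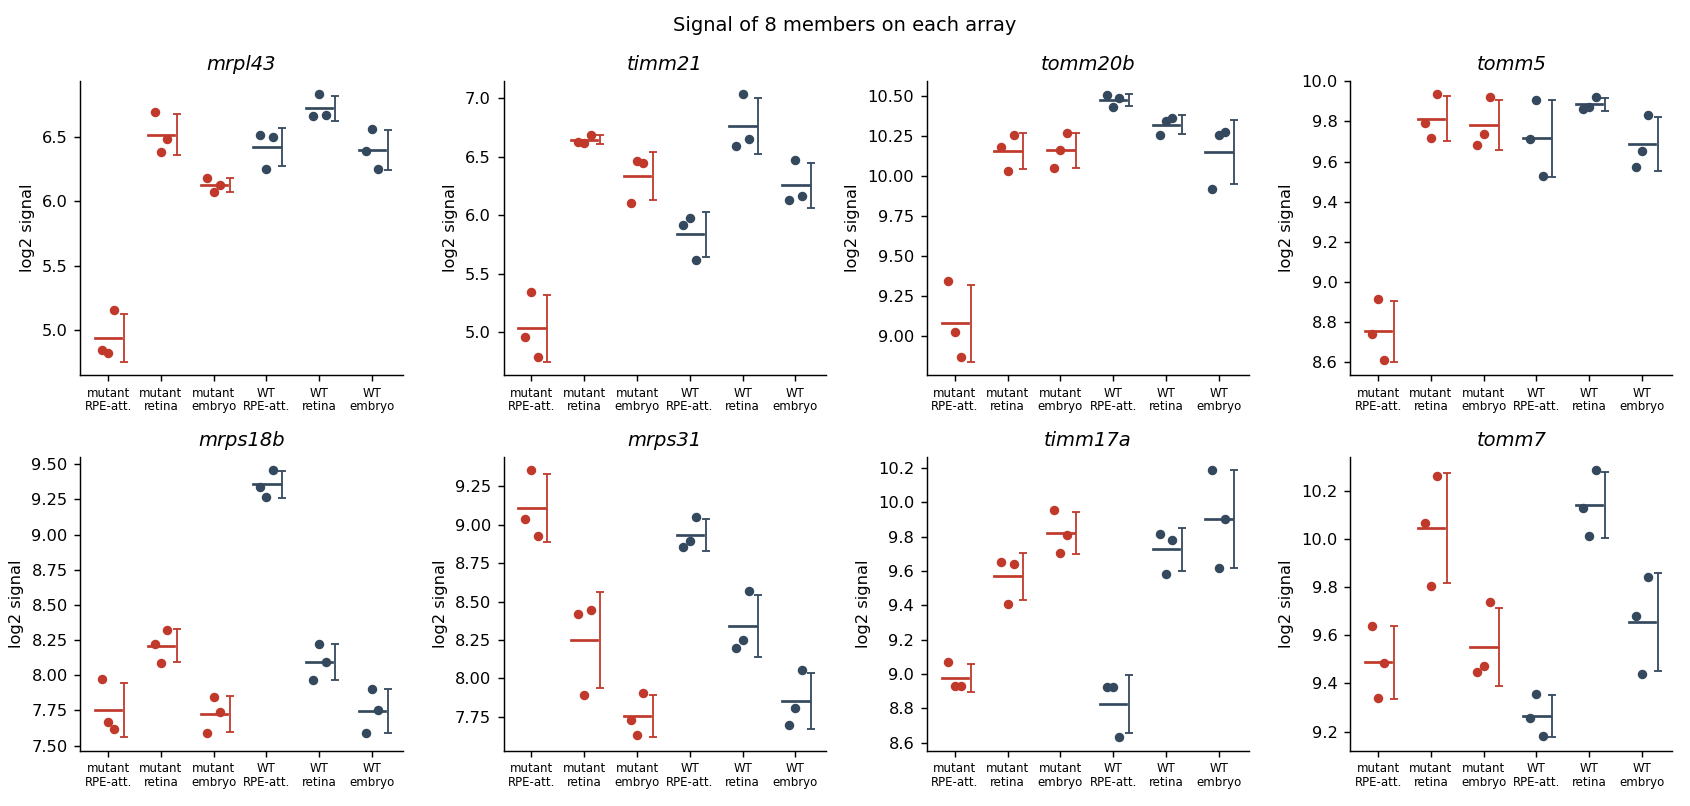
Log2 signal of 8 members on each of 18 arrays; points are arrays, horizontal lines group means and bars SD (n = 3), mutant groups in red and wild type in dark blue, each panel with its own axis that does not start at 0. mrpl43, tomm20b and tomm5 are low in all 3 mutant RPE-attached arrays, while timm21, timm17a and tomm7 are lower in RPE-attached than in bare retina arrays of both genotypes.

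In wild type, the same contrast gave as many members higher as lower. Of 77 members, 11 were higher with RPE attached and 12 were lower, against 15.2% and 14.0% of all probe sets and 8.51% and 26.7% of the bright ones. With the values as deposited, the members' shares, 14.3% and 15.6%, were near those of all probe sets. Against the bright ones, more members were higher and fewer lower. Their median difference was 0.01, and leaving out single arrays moved it between -0.08 (without wild type retina replicate 1) and 0.08 (without wild type retina replicate 3). The split followed the scaling: re-applied quantile normalization gave 18 higher and 8 lower, cyclic loess 19 and 8, and subtraction of array medians 8 and 18. Under re-applied quantile normalization 12.8% of all probe sets were higher and 12.5% lower. Cyclic loess gave 14.5% and 11.8%, and subtraction of array medians 10.5% and 18.5%. Under quantile and loess, a larger share of the members than of all probe sets was higher. Without wild type RPE-attached replicate 3 there were 7 higher and 7 lower, against 10.1% and 10.4% of all probe sets. By role, 6 mrpl members were higher and 2 lower, 3 mrps higher and 5 lower, and 2 timm higher and 4 lower, while 1 tomm member was lower. The centred tomm medians were nonetheless lower with RPE attached in wild type as well, at -0.10 to 0.07 against 0.26 to 0.34.

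The largest difference upward was that of mrps18b, one of several vertebrate versions of the protein S18. Its signals were 9.34, 9.27 and 9.46 with RPE attached, against 7.96, 8.22 and 8.10 in bare wild type retina. It was higher by 1.26 ± 0.12 on the log2 scale (adjusted p = 7.6e-07). It was the one member beyond 2-fold, a rule without a share of all probe sets here. That probe set is of a type that can match more than 1 transcript, and a dimmer mrps18b probe set was not called in wild type (-0.37, adjusted p = 0.139). mrpl15 had 9.56, 9.60 and 9.65, against 9.03, 9.01 and 9.02 in wild type retina. It was 1.51-fold higher (0.59 ± 0.09, adjusted p = 0.00016), with both groups tight and apart. Such a separation upward held for 26.4% of all probe sets in wild type. The small chaperone timm13, which escorts hydrophobic inner membrane proteins, was 1.41-fold higher (0.49 ± 0.11, adjusted p = 0.00208), and timm9, a small chaperone of the same compartment, stood at 0.42. mrps31 was higher here as well (0.59 ± 0.15, adjusted p = 0.00662).

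Members lower with RPE in wild type included timm21, with 5.92, 5.98 and 5.62, against 6.59, 7.03 and 6.65 in wild type retina (-0.92 ± 0.15, adjusted p = 0.00022). timm17a had 8.93, 8.92 and 8.63, against 9.82, 9.58 and 9.78 in wild type retina (-0.90 ± 0.13, adjusted p = 7.2e-05). tomm7 had 9.26, 9.36 and 9.18, against 10.13, 10.01 and 10.29 in wild type retina (-0.88 ± 0.13, adjusted p = 9.0e-05). In each of the 3 genes the groups were fully apart, as they were in this direction for 21.4% of all probe sets. mrpl52 was lower by 1.69-fold (-0.76 ± 0.15, adjusted p = 0.00116).

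The mutant and wild type contrasts share no arrays. Called lower in both were 9 members: timm21, timm17a, timm44, tomm7, mrpl52, mrps2, mrps5, mrps6 and mrps33, which is 11.7% of the members, against 6.7% of all probe sets. They are 9 of the 31 lower in the mutant and 9 of the 12 lower in wild type. mrps5 was called on its brightest probe set, and its other 2 were not called in either genotype. mrps31 was the 1 member higher in both. Lower in the mutant and higher in wild type were mrps18b and mrpl23, 2.6% of the members, against 0.664% of all probe sets. For mrps18b this holds on its brighter probe set alone. Its dimmer one was lower in the mutant (-1.11, limma adjusted p = 9.7e-05) and not called in wild type (-0.37). Called lower in the mutant with no call in wild type were 20 members, or 26%, against 8.97% of all probe sets. Neither contrast called 31 members, or 40.3%, against 44.9% of all probe sets.

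**Figure D3:**
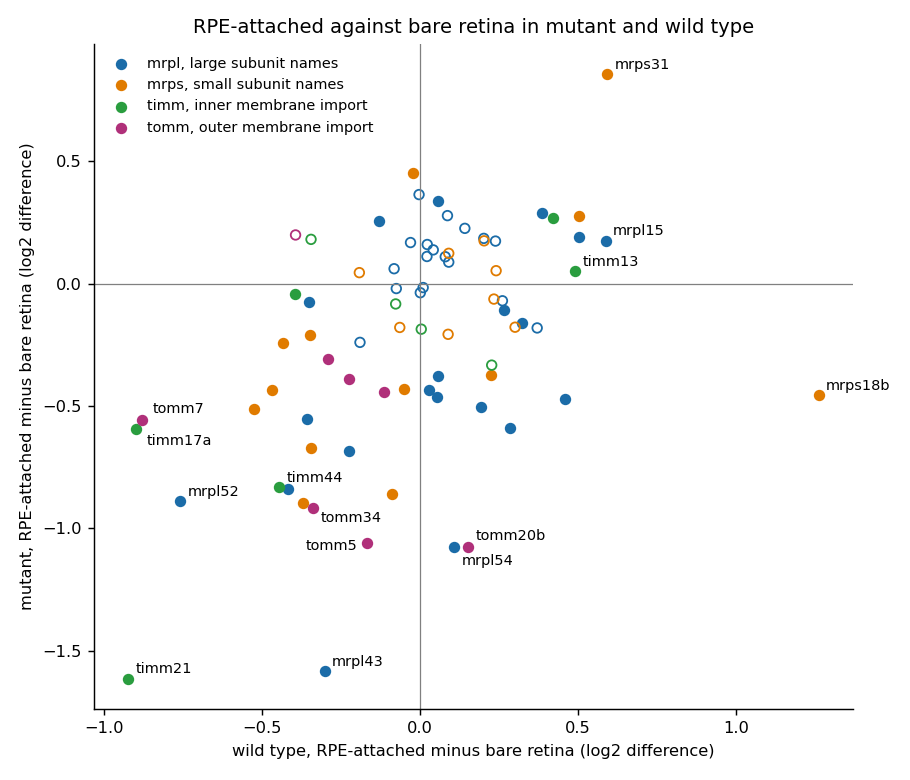
Log2 difference of RPE-attached minus bare retina for the 77 members, in the mutant (vertical axis) against wild type (horizontal axis), coloured by class; filled points were called in at least 1 genotype. mrps18b lies far right at -0.46 in the mutant and 1.26 in wild type, mrpl43 lies low at -1.58 in the mutant and -0.30 in wild type, and timm21 lies low in both.

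A call in one genotype alone does not show a difference between them, so the difference of the contrasts was tested itself. It was called higher for 1 member and lower for 15, against 11.6% and 8.61% of all probe sets; a lower value means that RPE attachment went with a lower difference in the mutant than in wild type. The 1 and 15 members are 1.3% and 19.5% of the class. Among the bright probe sets 17.9% were higher and 12.2% lower. Of the respiratory chain genes 5 were higher and 21 lower, and of the cytosolic ribosomal protein genes none was higher and 16 were lower. The count of 15 became 8 without wild type retina replicate 1, 8 without mutant RPE-attached replicate 3 and 9 without mutant retina replicate 3. In the same order, 6.41%, 8.59% and 7.2% of all probe sets were lower. None was higher without wild type RPE-attached replicate 2 or 3, mutant RPE-attached replicate 3 or mutant retina replicate 2 or 3, and 2 were without mutant RPE-attached replicate 1, wild type retina replicate 1, mutant embryo replicate 1 or wild type embryo replicate 3.

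mrps18b differed most, at -1.72 ± 0.17 (adjusted p = 4.9e-06). Its dimmer probe set differed the same way by less (-0.74, adjusted p = 0.0498). mrpl43 followed at -1.28 ± 0.17 (adjusted p = 6.4e-05), then tomm20b at -1.23 ± 0.17 (adjusted p = 1.0e-04). The second tomm20b probe set was not called (-0.27, adjusted p = 0.367). mrpl54 (-1.19), mrpl23 (-0.93), tomm5 (-0.89), mrpl42 (-0.87), mrps26 (-0.77), mrpl32 (-0.70), timm21 (-0.69), mrps15 (-0.60), mrps6 (-0.53), mrpl21 (-0.48), timm13 (-0.44) and mrpl15 (-0.41) were the other lower ones. A dimmer mrps15 probe set was not called (-0.42, limma adjusted p = 0.108). mrpl39 was the 1 higher (0.39 ± 0.13, adjusted p = 0.0391). For timm17a and tomm7, lower with RPE in both genotypes, no difference between the genotypes was called (0.31 ± 0.19 and 0.32 ± 0.19).

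Set against wild type in RPE-attached retina directly, the mutant had lower levels of many members. Of 77, 4 were higher and 36 lower, against 26.7% of all probe sets higher and 20.2% lower, and the members' median was -0.31. Among the bright probe sets 33.2% were higher and 27.8% lower. The class split was 19 of 38 mrpl, 9 of 21 mrps, 5 of 10 timm and 3 of 8 tomm lower, and 2 mrpl and 2 timm members higher. Respiratory chain genes leaned further, with 5 of 91 higher and 55 lower (median -0.41). Of the cytosolic ribosomal protein genes 5 of 73 were higher and 29 lower (median -0.17). Cell type markers differed as well: of 14 retinal neuron genes none was higher and 12 were lower, with median centred levels of -1.40 to -1.23 in mutant RPE-attached retina, against 0.53 to 0.67 in its wild type counterpart. Of 16 proliferation genes 13 were higher and none lower, with medians of 0.66 to 0.71 in the mutant, against 0.04 to 0.14 in wild type. Their part in the members' values was not tested. This comparison shares its arrays with both contrasts above, so its values are not separate evidence.

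The lowest were mrps18b (-1.60 ± 0.12, adjusted p = 3.4e-09), mrpl43 (-1.48), tomm20b (-1.40) and mrpl54 (-1.29). mrpl42 had 7.36, 7.48 and 7.37 in mutant RPE-attached retina, against 8.53, 8.52 and 8.53 in wild type RPE-attached retina. It was 2.18-fold lower, with both groups tight (-1.12 ± 0.13, adjusted p = 1.0e-06). mrpl23 had 9.34, 9.09 and 9.27, against 10.37, 10.22 and 10.41 in wild type RPE-attached retina, and was 2.15-fold lower (-1.10 ± 0.10, adjusted p = 6.3e-08). The strongest of the higher ones was timm50, the TIM23 receptor. It had 9.72, 9.73 and 9.58, against 8.73, 8.75 and 8.93 in wild type RPE-attached retina, and was 1.83-fold higher (0.87 ± 0.14, adjusted p = 5.3e-05). timm29, a subunit of the TIM22 complex that inserts carrier proteins, was 1.40-fold higher (0.48 ± 0.09, adjusted p = 0.00021). mrpl45 (0.40) and mrpl39 (0.25) were the remaining higher ones. Members of one complex thus went both ways, timm50 above and timm21 and timm44 (-0.34) below wild type.

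In bare retina and in whole embryos the genotypes were much closer. The main limma fit, without a block, called none of the 77 members in mutant against wild type retina. There 8.88% of all probe sets were higher and 9.41% lower. At an unadjusted p under 0.05, 2 members were higher and 10 lower. No share of all probe sets is given at that threshold, so these counts are not shown to be particular to the members. The members' median was -0.11. It was -0.04 without mutant retina replicate 2, -0.05 without wild type retina replicate 3 and -0.17 without mutant retina replicate 3. The smallest adjusted p, 0.067, belonged to tomm20a (-0.39 ± 0.14). Leaving out mutant retina replicate 3 or wild type retina replicate 1 called 2 lower, leaving out wild type embryo replicate 3 called 1 lower, and leaving out wild type retina replicate 2 called 1 higher. In the same order, 8.26%, 8.05% and 9.47% of all probe sets were lower, and 7.48% were higher. Embryo and retina arrays with the same replicate number deviated together, so the comparison was also fitted with that number as a block over those 12 arrays. The blocked fit called 3 members higher and 13 lower, against 16.1% and 14.9% of all probe sets. In it tomm20a was lower (-0.39 ± 0.08, limma adjusted p = 0.0021) and tomm34 (0.43 ± 0.11, adjusted p = 0.00876) and timm50 (0.35 ± 0.10, adjusted p = 0.0137) were higher. The same fit called 1 of 91 respiratory chain genes higher and 50 lower, against 1 and 17 without the block. Cell type markers differed between the genotypes here too. All 14 retinal neuron genes were lower in mutant retina, with median centred levels of -1.17 to -0.99, against 0.59 to 0.84 in wild type retina. Of 13 photoreceptor genes 2 were higher and 5 lower (medians of -0.02 to 0.05 in mutant retina, against 0.38 to 0.64 in wild type retina), and of 16 proliferation genes 7 were higher and none lower (0.43 to 0.57, against 0.05 to 0.24 in wild type retina). Of 4 lens genes 3 were higher in mutant retina. The part of these markers in the members' values was not tested.

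In whole embryos the main limma fit also called none, against 3.39% of all probe sets higher and 3.34% lower. At an unadjusted p under 0.05 none was higher and 11 were lower. That threshold again has no share of all probe sets beside it, so an excess among the members is not shown. The median was -0.11. Of 77 members 62 lay below 0, against 7785 of the 15502 probe sets. The smallest adjusted p was that of mrpl49, at 0.0575 (-0.43 ± 0.13). It had 7.49, 7.41 and 7.71 in mutant embryos, against 7.83, 7.93 and 8.15 in wild type embryos, without overlap. Such a separation downward held for 10.4% of all probe sets in embryos. Leaving out mutant embryo replicate 3, mutant retina replicate 2 or mutant RPE-attached replicate 1 or 2 called 1 lower. In the same order, 2.37%, 3.34%, 3.72% and 3.59% of all probe sets were lower. With the block over 12 arrays 1 member was higher, tomm34 (0.40), and 9 were lower, led by mrpl49 (-0.43 ± 0.08, limma adjusted p = 0.00226) and mrpl44 (-0.35). Their background in that fit was 8.5% higher and 7.79% lower. Of 14 retinal neuron genes none was higher and 5 were lower in mutant embryos. The 12 erythrocyte genes had median centred levels of 1.116 to 1.625 in mutant embryos, against 0.666 to 0.986 in wild type embryos. The part of these markers in the members' values was not tested.

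**Figure D4:**
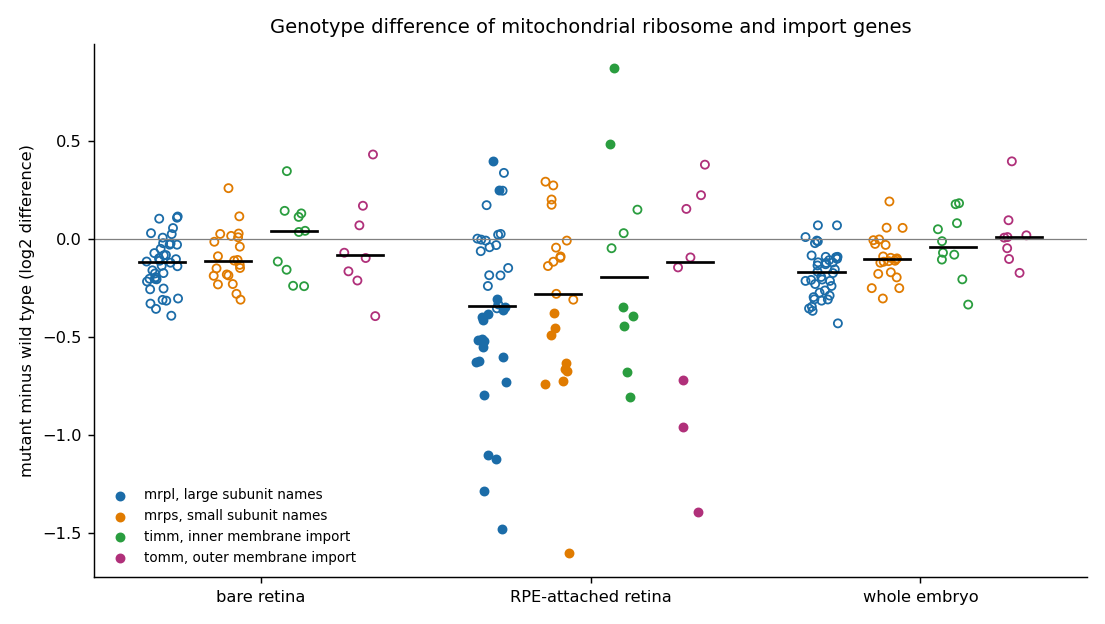
Log2 difference of mutant minus wild type for each member in bare retina, RPE-attached retina and whole embryo, by class; filled points were called, and black lines are class medians. The bare retina and embryo points lie between -0.43 and 0.43 with no call in the main fit, which has no block. Those of RPE-attached retina reach from -1.60 to 0.87.

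Bare retina was also set against whole embryo of the same genotype. In wild type, 57 members were higher in retina and none lower, against 44.5% of all probe sets higher and 19.6% lower, and in the mutant 56 were higher and 1 lower, against 47.8% and 21.7%. Medians were 0.43 in wild type and 0.45 in the mutant, against 0.24 and 0.26 over all probe sets and 0.41 and 0.39 over the bright ones. The members' share called higher in wild type was 74.0%, against 57.4% of the bright probe sets. Of the normalizations tried, cyclic loess alone took most of these calls away: it left 5 members higher and 3 lower in wild type and 11 and 6 in the mutant, with wild type medians of 0.04 for both members and all probe sets. All probe sets then had 18.6% higher and 26.8% lower in wild type and 22.6% and 29.5% in the mutant. Subtraction of array medians raised the count to 69 higher in wild type, against 58.8% of all probe sets. It moved the median of all probe sets to 0.36. In whole embryos other tissues add RNA: 17 of 17 muscle genes and 8 of 9 yolk and liver genes were lower in wild type retina, and 16 of 16 proliferation genes were higher. Their part in the members' values was not tested.

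The large subunit names were called most often, with 33 of 38 mrpl members higher in wild type retina, 16 of 21 mrps, 4 of 10 timm and 4 of 8 tomm. mrpl57 had 8.16, 8.28 and 8.81 in wild type retina, against 7.30, 7.41 and 7.88 in wild type embryos (0.89 ± 0.18, adjusted p = 0.00037). mrpl40 had 7.63, 7.27 and 7.71, against 6.88, 6.33 and 6.74 in wild type embryos (0.89 ± 0.20, adjusted p = 0.00085). tomm22 had 10.80, 10.42 and 10.77, against 10.15, 9.73 and 10.01 in wild type embryos (0.69 ± 0.15, adjusted p = 0.00041). Retina lay above embryo on all arrays for each of the 3, as it did for 51.8% of all probe sets. tomm22 had the largest difference of the 8 tomm genes in wild type, and its log2 difference in the mutant was 0.75. In the mutant, mrpl57 (0.91), mrpl44 (0.86) and tomm40l (0.82) were highest. The 1 member lower in mutant retina was mrps11 (-0.23, adjusted p = 0.0419), but its dimmer probe set was called higher (0.35, adjusted p = 0.0245). None was lower in the mutant without mutant retina replicate 2 or 3, mutant embryo replicate 1 or 3 or wild type embryo replicate 2, and without that last array 1 was lower in wild type.

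Higher levels in retina were not shared by the respiratory chain genes as deposited: 10 of 91 were higher and 6 lower in wild type, with a median of 0.00, and under cyclic loess 2 were higher and 57 lower with a median of -0.40. The members' median lay above that of the respiratory chain under each of the 4 normalizations plotted. Cytosolic ribosomal protein genes stood between, with 21 of 73 higher and 1 lower and a median of 0.22. Called higher in both genotypes were 51 members, or 66.2%, against 38.5% of all probe sets. They are 51 of the 57 in wild type and 51 of the 56 in the mutant.

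**Figure D5:**
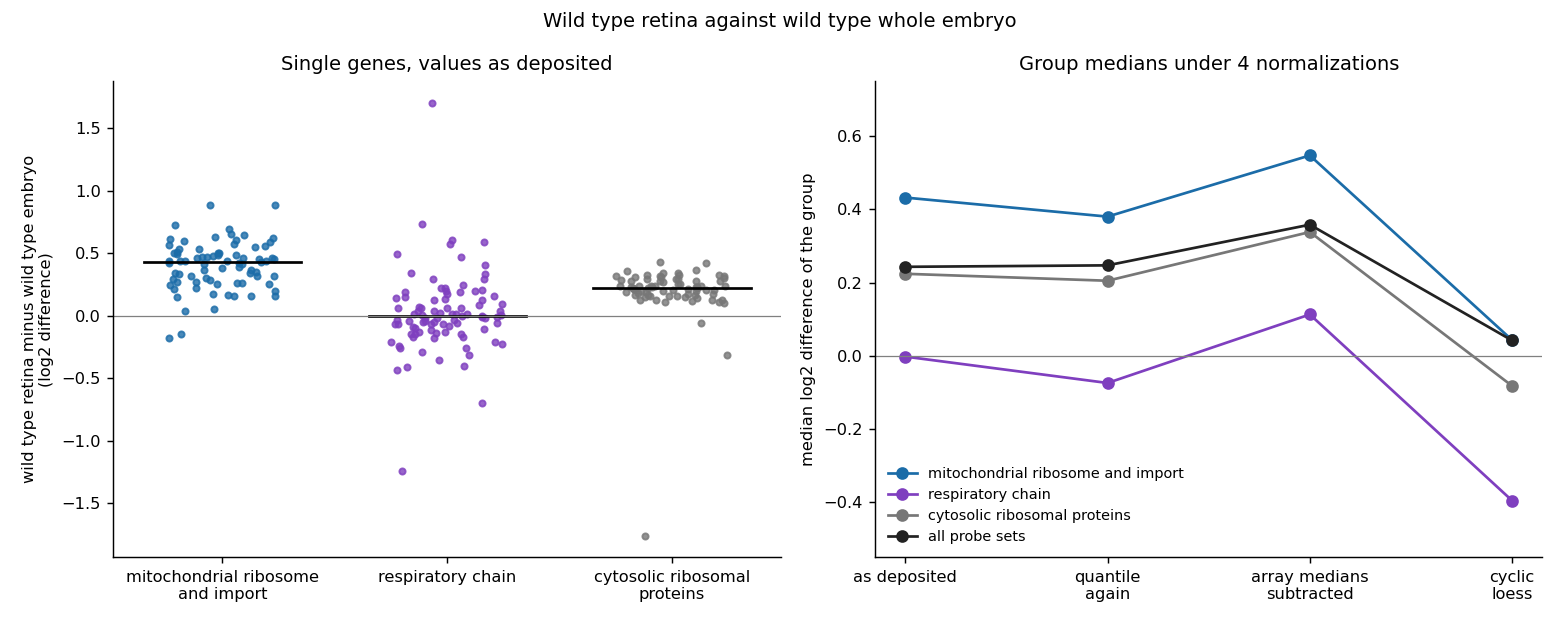
Wild type retina minus wild type whole embryo. Left, log2 difference of each gene (points) and class median (black line) for the 77 members, 91 respiratory chain genes and 73 cytosolic ribosomal protein genes; right, class medians and the median of all probe sets under 4 normalizations, where the members run from 0.55 after subtraction of array medians to 0.04 under cyclic loess and the respiratory chain runs from 0.11 to -0.40.

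Other genes of the same processes give the setting. Their counts stand against 23.9% of all probe sets higher and 16.3% lower in the mutant contrast, and 15.2% and 14.0% in wild type. Of 31 further genes of mitochondrial translation and ribosome assembly, 11 were higher and 4 lower in mutant RPE-attached than in mutant retina, with a median of 0.19; the medians of the mrpl and mrps genes were -0.03 and -0.21, and the difference was not tested. Among them mtif3, an initiation factor, was higher in the mutant (0.71) and in wild type (0.51). dap3, a small subunit protein without an mrps name, was higher in the mutant (0.53), as was lrpprc, which stabilises mitochondrial messages (0.57). tsfm, an elongation factor, was lower (-0.63). In wild type 6 were higher and 1 lower. tufm, the elongation factor that delivers tRNAs, was among the 6 (0.45), and it was lower in mutant than in wild type RPE-attached retina (-0.63).

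Of 27 further genes of protein import and processing, 4 were higher and 11 lower in mutant RPE-attached than in mutant retina, and 1 higher and 5 lower in wild type. grpel1 and grpel2, nucleotide exchange factors of mitochondrial Hsp70, were lower in the mutant (-1.18 and -1.17) and in wild type (-0.82 and -0.76). agk, a kinase that is also a TIM22 subunit in human cells, was lower in the mutant (-0.94) and in wild type (-0.95). hspa9, mitochondrial Hsp70 itself, was higher in the mutant (0.39), and stood 0.81 above wild type in RPE-attached retina. mtx1b, an outer membrane protein of the metaxin family, was higher in the mutant (0.81).

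Genes of mitochondrial DNA were called in both directions in the mutant, and regulators mostly lower. Of 12 genes of mitochondrial DNA maintenance and transcription, 4 were higher and 3 lower in mutant RPE-attached than in mutant retina, and none higher and 3 lower in wild type. tk2, which supplies nucleotides inside mitochondria, was lower in the mutant (-0.92) and in wild type (-0.99). slc25a33, a pyrimidine carrier, was higher in the mutant (0.39) and lower in wild type (-0.69). Of 17 regulators of mitochondrial genes, 1 was higher and 7 lower in the mutant, and none higher and 8 lower in wild type. nrf1, whose human protein binds promoters of many mitochondrial genes, was 2.14-fold above wild type in mutant RPE-attached retina, and yy1a stood 1.72-fold above it. In that comparison hcfc1b, yy1b and atf5a were also called higher, and sp1 and gabpb2a were called lower. Of all probe sets 26.7% were higher and 20.2% lower there, and no count over the regulators is given. The yy1a value there was not picked by the naming rule given below. mycn, a driver of ribosome and mitochondrial gene expression, was lower with RPE attached in the mutant (-1.47) and in wild type (-0.78).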

How the data were processed

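Log2 signals of 18 Affymetrix arrays were used as the authors deposited them, after background adjustment, normalization and summary by RMA, per the series design; the submitters' processing notes name affy and R 2.2.0. The unit is log2 signal; scans were not used. Of 15617 probe sets, 115 controls were left out; 10795 of the others had 1 symbol, 135 several and 4572 none. All 77 members matched the RefSeq gene table.

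A mean per group was fitted over all arrays with limma 3.58.1 (R 4.3.3), with empirical Bayes moderation and Benjamini-Hochberg adjustment, and tested on simulated data. There were 8 comparisons. The number of arrays limits precision. Figures used Python 3.11.15 and matplotlib 3.10.9.

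Replicate numbers were checked for pairing: deviations of same-numbered arrays correlated at 0.29 to 0.60 in all 6 pairs of embryo and retina groups, and at -0.20 to 0.16 in the 9 pairs with an RPE-attached group. The labels state no pairing, so the block is an alternative.

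Members and lists were chosen with earlier results of these data known. Named members are up to 4 called per class and direction in the RPE-attached contrasts, up to 4 per direction over all members otherwise, the brightest and dimmest 2 of each class, and members whose probe sets oppose; of other lists, up to 4 called per direction. Others named, such as tomm20a, mrps15, mrpl21 and mrpl32, were chosen after their values were seen. Alternatives were stricter thresholds, a mean over probe sets, other normalizations and moderation, array weights, the compared groups alone, blocks, and leaving out each array. Cyclic loess and the shares among bright probe sets were added after seeing the data.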

Additional observations from a re-analysis of the deposited data

Results flagged for a closer look

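The difference of the RPE-attached contrast between mutant and wild type was called for 16 members by the interaction of genotype and tissue, adjusted over all probe sets. Each value is mutant (RPE-attached minus bare retina) minus wild type (the same), on the log2 scale, and 11.6% of all probe sets were called higher and 8.61% lower. Among the bright probe sets these shares were 17.9% and 12.2%. Of the values by class that follow, each is for 1 member. Among the mrpl genes it was -1.28 for mrpl43, -1.19 for mrpl54, -0.93 for mrpl23, -0.87 for mrpl42, -0.70 for mrpl32, -0.48 for mrpl21, -0.41 for mrpl15 and 0.39 for mrpl39. Among the mrps genes it was -1.72 for mrps18b, -0.77 for mrps26, -0.60 for mrps15 and -0.53 for mrps6. Among the import genes it was -1.23 for tomm20b, -0.89 for tomm5, -0.69 for timm21 and -0.44 for timm13. Dimmer probe sets of mrps15 (-0.42) and tomm20b (-0.27) were not called, while that of mrps18b (-0.74) was. The mutant RPE-attached arrays, on which each of these rests, had hybridization controls at 11.33 against 9.66 in wild type RPE-attached retina; the part of this in the values was not tested.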

How the results depend on the processing

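Counts are members higher and lower. At an adjusted p under 0.001, 1 and 12 were called in mutant RPE-attached against mutant retina, 2 and 3 in the wild type contrast, 0 and 5 in the difference between genotypes, 2 and 16 between genotypes in RPE-attached retina, 17 higher in wild type retina against embryo, and 19 and 0 in the mutant. Of all probe sets, 7.02% were higher and 7.55% lower at that threshold in the mutant contrast, and 3.15% and 4.12% in wild type. The difference between genotypes had 1.52% and 1.22%, and the genotypes in RPE-attached retina 11.9% and 9.57%. For retina against embryo, 21.7% were higher in wild type, and 24.7% higher and 16.7% lower in the mutant. Requiring 2-fold left 0 and 5 members, 1 and 0, 0 and 4, 0 and 6, 0 higher, and 0 and 0 in the same order. No share of all probe sets is given for the 2-fold rule. In mutant RPE-attached against mutant retina, higher members numbered 7 after repeated quantile normalization, 2 after subtracting array medians, 2 with array weights, 2 with the compared groups alone, 8 with a replicate block over 18 arrays and 10 under cyclic loess. In the same order, 18.2%, 17%, 19.6%, 16.5%, 26.8% and 20.9% of all probe sets were higher. In the wild type contrast higher members numbered 18 (quantile) and 19 (loess), against 12.8% and 14.5% of all probe sets. In the difference between genotypes, higher members numbered 2 with probe sets averaged, 0 with trended and robust moderation, 0 with array weights and 5 with the block over 18 arrays. Of all probe sets, 10.4% were higher there with array weights and 14.4% with that block, against 11.6% in the main fit. The first 2 of these settings are given without a share. Between genotypes in RPE-attached retina the block gave 7 higher, against 29.1% of all probe sets. In bare retina the block over 18 arrays gave 1 and 4, against 10.7% and 10.9% of all probe sets. The block over 12 embryo and retina arrays gave 3 and 13 there, against 16.1% and 14.9%. Array weights gave 2 lower, against 11.1%. In embryos the block over 12 arrays gave 1 and 9, against 8.5% and 7.79% of all probe sets. There 1 was lower under averaged probe sets, quantile, weights, the 18-array block and loess. The last 4 of these had 3.48%, 4.21%, 4.41% and 3.49% of all probe sets lower. For retina against embryo, loess gave 5 and 3 in wild type and 11 and 6 in the mutant. All probe sets then had 18.6% and 26.8% in wild type and 22.6% and 29.5% in the mutant. Quantile gave 2 lower in each, against 19.8% of all probe sets in wild type and 21.7% in the mutant. In mutant retina against mutant embryo, lower members numbered 0 with averaged probe sets, medians subtracted, robust moderation or the groups alone, and 2 with either block. All probe sets had 19.1%, 21.8% and 22.1% lower with medians subtracted, robust moderation and the groups alone. The blocks over 18 and 12 arrays had 22.4% and 24.2%. The blocks changed no other count by over 1.5 times.

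Leaving out each array gave, higher and lower, 2 to 6 and 23 to 31 in the mutant contrast, 7 to 12 and 7 to 15 in the wild type contrast, 0 to 2 and 8 to 17 in the difference, 3 to 6 and 29 to 38 between genotypes in RPE-attached retina, 0 to 1 and 0 to 2 in bare retina, 0 to 0 and 0 to 1 in embryos, 38 to 57 and 0 to 1 in wild type retina against embryo, and 42 to 59 and 0 to 1 in the mutant. Shares of all probe sets moved as well. Without mutant retina replicate 3, which gave 23 lower in the mutant contrast, 13.9% of all probe sets were lower there. Without wild type retina replicate 3, which gave 38 higher in wild type retina against embryo, 38.2% were higher there. Without mutant embryo replicate 1, which gave 42 higher in the mutant, 43.8% were higher there.

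Signs turned for called members as follows. mrps11 stood at 0.063 in mutant retina minus embryo with probe sets averaged. Under cyclic loess, wild type retina minus embryo was -0.14 for mrpl23, -0.032 for mrpl9, -0.13 for mrps12, -0.05 for mrps18b and -0.10 for mrps34. In the mutant it was -0.065 for mrpl12, -0.076 for mrpl23, -0.10 for mrps12 and -0.12 for mrps34. The cause was not tested. For the 45 named members, 9747 of 10252 values kept their direction and side of the threshold, 313 lost the call, 182 gained one and 10 turned. These members were named in part because they were called, so the counts do not describe the whole class. Signals near the dim mark limit timm21 and mrpl43.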
